A study of Homo sapiens with 8 samples.

Results

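The SR proteins, the hnRNPs and a set of related splicing regulators were followed in SW1990 cells, an established line of pancreatic ductal adenocarcinoma. Members were taken by name from the gene-level count table: protein-coding genes on autosomes or the X chromosome called SRSF or HNRNP with their usual suffixes, together with TRA2A, TRA2B, PTBP1, PTBP3, RBFOX2, U2AF1 and U2AF2. This gave 45 of the 60483 genes in the table, with 12 SR protein genes, 26 hnRNP genes and 7 others. The series holds 8 samples that make up 4 libraries, each on 2 lanes. Of these libraries, 2 were labelled side population cells with CRISPR knockdown of PAF1 and 2 were labelled side population control cells, and nothing in the labels says whether the knockdown cells were 1 clone or a pool. A side population is sorted as the cells that pump out a DNA dye.

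SR proteins join an RNA recognition motif to a domain rich in arginine and serine, bind exonic sequences and help the spliceosome to choose nearby splice sites. The hnRNPs coat nascent transcripts and often act against SR proteins at the same exons, while the U2AF heterodimer recognises the 3′ splice site. Many of these genes limit their own expression by including exons that carry a premature stop codon, after which the transcript is removed by nonsense-mediated decay. PAF1, the targeted gene, encodes a subunit of a complex that travels with elongating RNA polymerase II, and the series title links it to stemness through the splicing factor PHF5A and the helicase DDX3.

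Library names in the table gave the group but not the library number. In each group 1 name began with SP and 1 did not, so libraries are called SP-prefixed or unprefixed. The names differ in other parts too. Both SP-prefixed names also hold P3, and the unprefixed control is the only library without CRISPR in its name. What these parts mean is not stated in the sources used here. All sample titles say side population, and no source used here explains the prefix, so libraries of the same prefix are set side by side only for that shared name. Total counts ran from 17234973 to 22348416 per library. Levels are given as CPM, the counts of a gene scaled to library size. PAF1 mRNA had 41.7 CPM (unprefixed) and 44.4 CPM (SP-prefixed) in the libraries labelled PAF1 knockdown, against 55.2 CPM (unprefixed) and 43.9 CPM (SP-prefixed) in the controls (log2 fold change -0.20 ± 0.16, SE; edgeR adjusted p = 0.663). The SP-prefixed knockdown library was therefore not below the SP-prefixed control, and every direction below rests on the labels. All 8 ductal and epithelial marker genes were detected, summing to 5937 and 5582 CPM in the knockdown libraries and 6962 and 5717 CPM in the controls. Of these, MUC1 had 115 and 71.6 CPM in the knockdown libraries and 229 and 143 CPM in the controls. It fell by 1.00 ± 0.13 on the log2 scale with the prefix in the model, a fit with 1 residual degree of freedom (edgeR adjusted p = 0.0115). MUC1 did not pass without the prefix (edgeR adjusted p = 0.298). SOX9 had 49.96 and 51.1 CPM against 39.05 and 40.5 CPM (log2 fold change 0.35 ± 0.13, edgeR adjusted p = 0.399). Acinar and leukocyte lists summed to 0.158 to 2.78 CPM, the endothelial list to 23.8 to 29.8 CPM and the fibroblast list to 38.3 to 48.7 CPM, with COL3A1, DCN, CPA1 and AMY2A among the markers at 0 counts in every library. Most of the fibroblast sum came from COL1A1 (29.8 to 37.9 CPM), and most of the endothelial sum from CDH5 (20.7 to 27.4 CPM). The part of these marker lists in the results was not tested.

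Of the 45 members, 39 passed the filter on low counts (11 SR proteins, 22 hnRNPs and 6 others). The remaining 6 were SRSF12, HNRNPCL1, HNRNPCL2, HNRNPCL3, HNRNPCL4 and U2AF1. SRSF12 had 0 to 3 counts per library, HNRNPCL1 had 6 to 12, and the other HNRNPCL genes had at most 1. U2AF1, the small subunit that contacts the AG of the 3′ splice site, had 2 and 0 counts in the knockdown libraries and 0 and 0 in the controls. A near-identical gene on the same chromosome (ENSG00000275895.3, chromosome 21, 6484623 to 6499261, GRCh38), listed as U2AF1L5 in GENCODE release 29, had 5 and 6 counts in the knockdown libraries and 4 and 7 in the controls. Of the 50-base windows in annotated U2AF1 transcripts, 94.3% also occur in transcripts of that copy, so the level of U2AF1 cannot be read from this table.

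The measured members spanned a wide range of levels. On a scale that also divides by gene length (TPM), HNRNPA2B1, which binds and sorts many mRNAs and microRNAs, was the highest of them, with 930 and 920 TPM in the knockdown libraries and 861 and 769.8 TPM in the controls. Next in mean level came HNRNPAB (532 TPM over the 4 libraries), HNRNPF (518 TPM), HNRNPK (486 TPM), SRSF1 (385 TPM), PTBP1 (365 TPM) and SRSF2 (345 TPM). HNRNPAB had 602 and 601 TPM in the knockdown libraries against 528 and 397 TPM in the controls, a range that takes in the 438 to 561 TPM of HNRNPF and the 465 to 514 TPM of HNRNPK, so the order of these neighbours is not fixed by their means. SRSF1 spanned 227 to 458 TPM, which contains the libraries of PTBP1 (307 to 396 TPM) and SRSF2 (246 to 399 TPM). At the low end, HNRNPLL had 35.3 to 42.4 TPM, HNRNPA1L3 32.4 to 38.2 TPM and HNRNPA1L2 10.5 to 13.8 TPM. The lengths are sums over all annotated exons, so genes with long alternative ends, such as TRA2B (11769 bases) and SRSF10 (10277 bases), have low values on this scale.

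**Figure D1:**
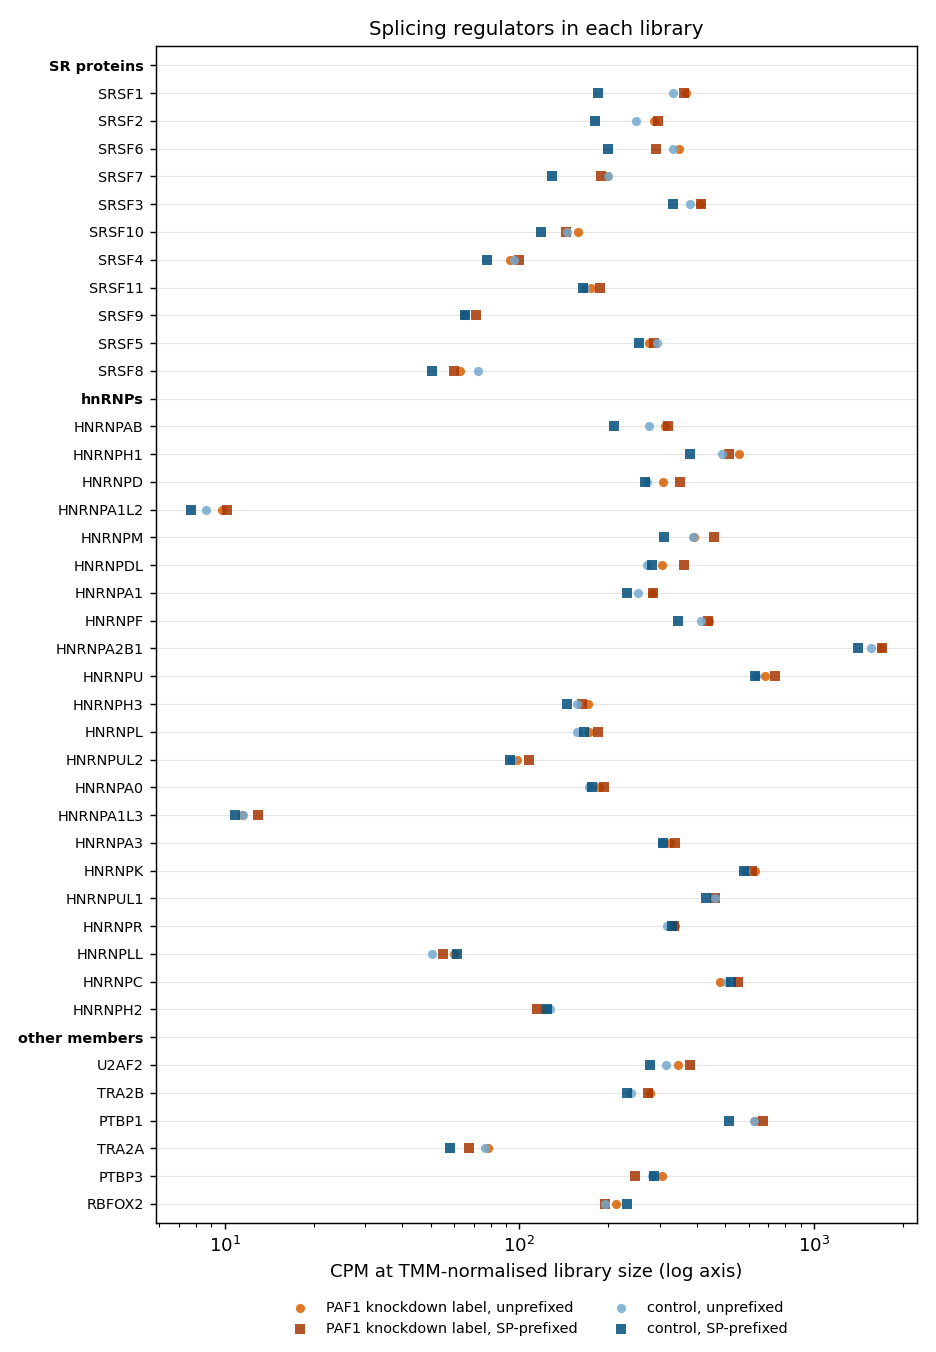
Level of the 39 measured splicing regulators in each of the 4 libraries, as CPM at the TMM-normalised library size on a log axis; orange marks are libraries labelled PAF1 knockdown, blue marks controls, circles unprefixed and squares SP-prefixed libraries. Within each class genes are ordered by fold change; the dark blue square of the SP-prefixed control lies left of the other marks for SRSF1, SRSF2, SRSF6 and SRSF7.

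The first question was whether these genes differed between the libraries labelled PAF1 knockdown and the controls. Most members lay slightly higher in the knockdown libraries, none passed the test, and the sizes were small. Of the 39 measured members, 35 had a positive log2 fold change, against 48.3% of the 16417 genes tested. Their median log2 fold change was 0.16, with 0.21 for SR proteins and 0.15 for hnRNPs, against -0.01 for all genes tested. In the unprefixed pair of libraries the members' median was 0.11 and in the SP-prefixed pair 0.25. No member passed edgeR's quasi-likelihood test after Benjamini-Hochberg adjustment (lowest adjusted p = 0.421), and 0% of all genes tested did. At an unadjusted p under 0.05 there were 2 members, SRSF2 and HNRNPAB, or 5.13% of those measured, which is fewer than the 11.2% of all genes. Both were higher in the knockdown libraries, as were 4.03% of all genes at that p. DESeq2 and limma-voom also passed 0 members, while DESeq2 passed 1.57% and limma-voom 0% of all genes tested. In bulk RNA, fewer cells of a type and less RNA per cell cannot be told apart.

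Both knockdown libraries lay above both controls for 24 of the 39 members (61.5%), against 22.1% of all genes tested. Both lay below both controls for 1 member, HNRNPH2, or 2.56%, against 22.6% of all genes. The other 14 members overlapped between the groups. By class, 17 of 22 hnRNPs and 4 of 11 SR proteins lay above both controls, as did 3 of the 6 other members. Together the members took 1.23% and 1.24% of the counts in the knockdown libraries and 1.18% and 1.02% in the controls. Genes of a class tend to move together, so these counts are descriptions and not tests of the class.

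**Figure D2:**
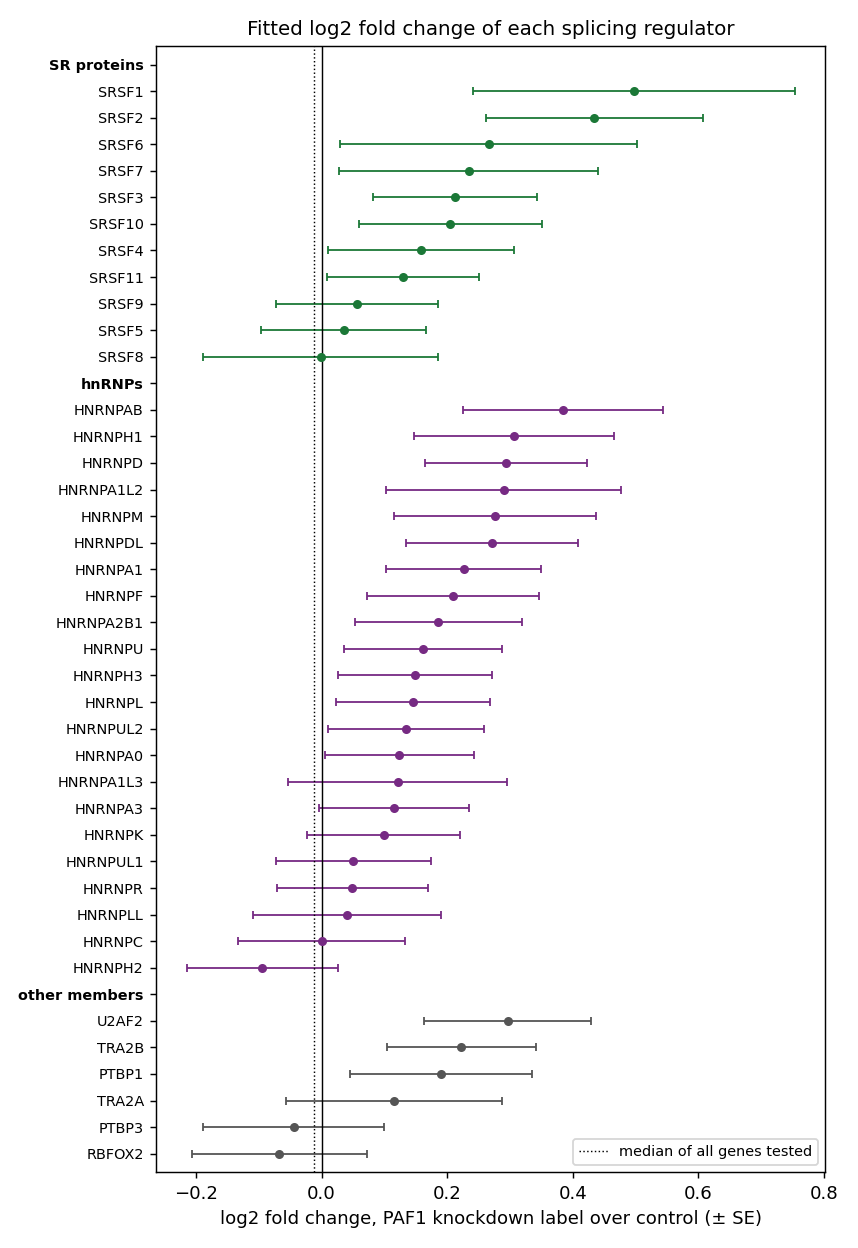
Fitted log2 fold change of each measured splicing regulator, libraries labelled PAF1 knockdown over controls (points; bars are ± 1 SE, n = 2 libraries per group); the dotted line is the median of all genes tested, -0.01. Most points lie right of the line, from -0.09 for HNRNPH2 to 0.50 for SRSF1, and no gene passes the adjusted threshold.

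SRSF2 (ENSG00000161547.13, chromosome 17, 76734115 to 76737374, minus strand, GRCh38) activates exons and takes part in release of paused RNA polymerase II. It had 286 and 295 CPM in the unprefixed and SP-prefixed knockdown libraries, against 249 and 181 CPM in the unprefixed and SP-prefixed controls. The groups did not overlap, and the controls lay further apart than the 2 groups' nearest libraries. The fitted log2 difference was 0.43 ± 0.17 (SE, n = 2; edgeR adjusted p = 0.421), and by prefix it was 0.20 for the unprefixed libraries and 0.71 for the SP-prefixed ones. Of its annotated exon bases, 36.7% also lie in other genes of the table, among them MFSD11, so its reads could be split with them.

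HNRNPAB, a nuclear and cytoplasmic RNA-binding protein, had the lowest p of the hnRNPs. It had 313 and 318 CPM in the knockdown libraries and 275 and 209 CPM in the controls. The knockdown libraries were close to each other and the SP-prefixed control was the lowest of the 4. Its log2 fold change came to 0.38 ± 0.16 (edgeR adjusted p = 0.44).

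The paralogs HNRNPD and HNRNPDL, which lie near each other on chromosome 4 and whose proteins bind AU-rich elements, differed less between the controls. HNRNPD, also known as AUF1, had 308 and 350.3 CPM in the knockdown libraries and 271 and 266 CPM in the controls, or 0.29 ± 0.13 on the log2 scale (edgeR adjusted p = 0.459). HNRNPDL had 305 and 362 CPM in the knockdown libraries and 271 and 282 CPM in the controls, or 0.27 ± 0.14 on the log2 scale (edgeR adjusted p = 0.509). For both genes the controls lay close together, below both knockdown libraries, and the SP-prefixed knockdown library was the highest. The large U2AF subunit gene U2AF2, whose protein binds the polypyrimidine tract, had 345 and 380.5 CPM in the knockdown libraries and 314 and 278 CPM in the controls (log2 fold change 0.30 ± 0.13, edgeR adjusted p = 0.468). Its unprefixed control lay closer to the unprefixed knockdown library than to the SP-prefixed control.

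Among the other hnRNPs, HNRNPA2B1 and HNRNPU had the highest CPM. HNRNPA2B1 had 1686 and 1701 CPM in the knockdown libraries and 1564 and 1414 CPM in the controls, a log2 fold change of 0.19 ± 0.13. HNRNPU, a nuclear scaffold protein that binds chromatin and RNA, had 681 and 735 CPM against 636 and 629.9 CPM (0.16 ± 0.13). HNRNPA1, the best studied splicing silencer of the family, had 282 and 285 CPM against 253 and 231 CPM (0.23 ± 0.12). In each of these genes both knockdown libraries were above both controls, and none passed the test. HNRNPC, which coats uridine-rich stretches and keeps cryptic exons out of mRNA, had 479 and 552 CPM against 508 and 523 CPM, with the controls between the knockdown libraries and a log2 fold change of 0.00 ± 0.13.

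The remaining hnRNPs that lay above both controls were HNRNPH1, HNRNPM, HNRNPF, HNRNPH3, HNRNPL, HNRNPUL2, HNRNPA0, HNRNPA3, HNRNPK, HNRNPR and HNRNPA1L2, with log2 fold changes from 0.05 (HNRNPR) to 0.31 (HNRNPH1). Of the HNRNPUL2 exon bases, 44.5% also lie in the gene HNRNPUL2-BSCL2, so its reads could be split with that gene. HNRNPH1, a binder of G-rich sequences, had 559 and 514 CPM in the knockdown libraries and 489 and 379 CPM in the controls (0.31 ± 0.16, edgeR adjusted p = 0.519). HNRNPM was nearly equal in the unprefixed pair, with 390.2 CPM in the knockdown library and 389.6 CPM in the control, and its difference lay in the SP-prefixed pair, with 457 CPM in the knockdown library and 309.9 CPM in the control. HNRNPUL1, HNRNPLL and HNRNPA1L3 overlapped between the groups. HNRNPA1L2 and HNRNPA1L3 are copies of HNRNPA1. In GENCODE release 29 HNRNPA1L3 carries the pseudogene-style name HNRNPA1P48, with a protein-coding type. Rows named as HNRNPA1 pseudogenes, 74 in all, held 8% and 9.22% as many counts as HNRNPA1 in the knockdown libraries and 8.9% and 8.61% in the controls. Reads could be split among these copies, so the levels of HNRNPA1 and its copies are uncertain to that extent.

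Of the 39 members, 4 had a negative log2 fold change. HNRNPH2, an X-linked paralog of HNRNPH1 whose exons overlap a readthrough transcript over 16.3% of their length, had 121 and 114 CPM in the knockdown libraries and 127 and 124 CPM in the controls (log2 fold change -0.09 ± 0.12, edgeR adjusted p = 0.807). RBFOX2, which promotes or represses exons by position and is known as a regulator of splicing in epithelial to mesenchymal transition, had 212 and 195 CPM against 195 and 231 CPM (-0.07 ± 0.14). PTBP3, a paralog of PTBP1, had 304 and 246 CPM against 282 and 285 CPM (-0.04 ± 0.14). RBFOX2 was higher in the knockdown library of the unprefixed pair and lower in that of the SP-prefixed pair, and so was PTBP3. SRSF8, the fourth, had a log2 fold change of -0.0013 ± 0.19. PTBP1, a repressor of neuronal and other tissue-specific exons, had 630.1 and 669 CPM in the knockdown libraries and 624 and 515 CPM in the controls (0.19 ± 0.14), and TRA2B, an SR-like activator, had 277 and 273 CPM against 239 and 232 CPM (0.22 ± 0.12). The TRA2B libraries of each group lay close together and the groups did not overlap, whereas TRA2A, its paralog, overlapped, with 78.04 and 67.4 CPM in the knockdown libraries and 76.2 and 57.97 CPM in the controls.

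Some SR protein genes differed more between the 2 controls than between the groups. The 5 members with the largest ratio between the controls were SRSF1, SRSF6, SRSF7, SRSF8 and SRSF2, and each was lowest in the SP-prefixed control. The summed SR protein level was 2441 and 2401 CPM in the knockdown libraries and 2333 and 1757 CPM in the controls, so the SP-prefixed control stood apart from the other 3 libraries. Summed hnRNP levels were 8029 and 8303 CPM in the knockdown libraries against 7516 and 7023 CPM in the controls. The SP-prefixed control was the lowest of the 4 libraries for 28 of the 39 members (71.8%), against 31.7% of all genes tested, and for 10 of the 11 measured SR protein genes. The exception, SRSF9, was lowest in the unprefixed knockdown library. A limit of -0.4 or less on the log2 ratio of the SP-prefixed to the unprefixed control was set after the values were seen. It was met by 5 members, all SR proteins, and by 15.1% of all genes. The members' share of such genes was therefore not above that of the table. TRA2A and HNRNPAB missed the limit narrowly, at -0.395 and -0.394, so its place decides that only SR proteins met it.

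SRSF1 (ENSG00000136450.11, chromosome 17, 58003360 to 58007346, minus strand, GRCh38), the founding SR protein, known as a proto-oncogene, had 368 and 361 CPM in the knockdown libraries. In the controls it had 332 CPM in the unprefixed library and 184 CPM in the SP-prefixed one. The low value stood in both lanes of that library, with 190.1 and 179 CPM per lane, while the unprefixed control had 339.6 and 325 CPM per lane. The SP-prefixed control held 0.555 times the level of the unprefixed control (95% counting interval 0.533 to 0.577), while the SP-prefixed knockdown library held 0.982 times that of the unprefixed one (0.949 to 1.02). Intervals cover counting error only. Between the groups the log2 difference was 0.50 ± 0.26 (edgeR adjusted p = 0.517), and by prefix it was 0.15 for the unprefixed libraries and 0.97 for the SP-prefixed ones. Of its exon bases, 23.1% lie in other genes.

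SRSF6, a regulator of exon choice that is amplified in some carcinomas, had 347 and 292 CPM in the knockdown libraries and 331 and 200.4 CPM in the controls. SRSF7, which carries a zinc knuckle and also acts in mRNA export, had 198 and 189.5 CPM against 200.2 and 129 CPM. In both genes the unprefixed control stood beside the knockdown libraries and the SP-prefixed control lay at 0.605 (95% counting interval 0.583 to 0.629) and 0.645 (0.614 to 0.677) times the unprefixed one. Their log2 fold changes were 0.27 ± 0.24 for SRSF6 and 0.23 ± 0.21 for SRSF7, with groups that overlapped. SRSF8, known as an expressed retrotransposed copy of SRSF2, had 62.9 and 60.1 CPM against 72.4 and 50.6 CPM, the controls lying on either side of the knockdown libraries.

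The other SR genes differed less. SRSF3, the smallest family member and an export adaptor, had 412 and 413 CPM in the knockdown libraries and 379.8 and 332 CPM in the controls. SRSF10 had 158 and 144 CPM against 145 and 118 CPM, and SRSF4 had 93.2 and 100.1 CPM against 95.8 and 77.4 CPM. SRSF11 had 174 and 188 CPM against 168 and 164 CPM, SRSF5 had 276 and 286 CPM against 294 and 255 CPM, and SRSF9 had 64.8 and 71.3 CPM against 65.5 and 65.4 CPM. Of these genes SRSF3 and SRSF11 separated the groups, and the others overlapped. No annotated exon base of SRSF3, SRSF4, SRSF5, SRSF10 or SRSF11 lies in another gene, whereas 46.2% of the SRSF9 exon bases also lie in GATC.

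**Figure D3:**
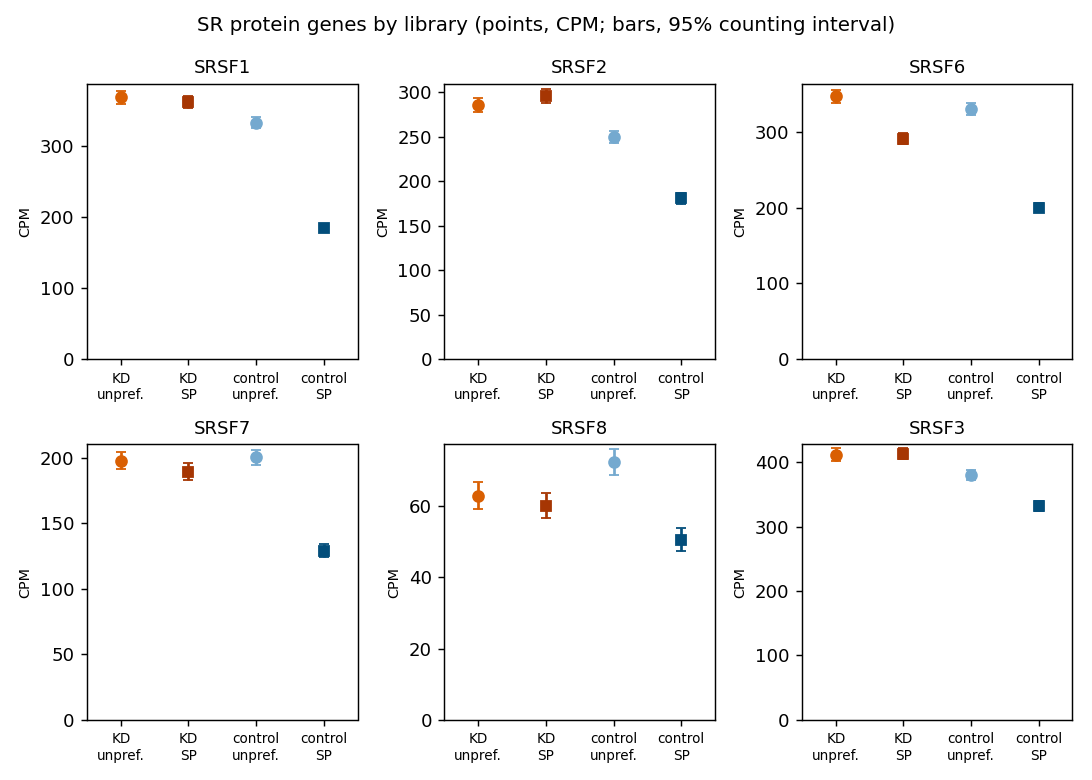
Level of 6 SR protein genes in each library (points, CPM; bars, 95% counting interval; each axis starts at 0), the libraries labelled PAF1 knockdown (KD) left of the controls. In SRSF1, SRSF2, SRSF6 and SRSF7 the SP-prefixed control stands below the other 3 libraries, SRSF1 at 184 CPM against 332 to 368 CPM. In SRSF3 the SP-prefixed control is also the lowest, with a smaller gap.

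The outcome for the SR genes depended on which control was used. Without the unprefixed control, 5 of the 40 members then tested (12.5%) rose in the knockdown libraries, against 3.21% of all genes called higher, and all genes called in either direction came to 8.46%. The 5 were SRSF1 (log2 fold change 1.00 ± 0.14, edgeR adjusted p = 0.00227), SRSF2 (0.70 ± 0.13, adjusted p = 0.0117), SRSF7 (0.60 ± 0.13, adjusted p = 0.0212), SRSF6 (0.69 ± 0.15, adjusted p = 0.0216) and HNRNPAB (0.61 ± 0.13, adjusted p = 0.0215). With that control left out, 16 of 40 members (40%) had an unadjusted p under 0.05, against 24% of all genes. The groups did not overlap for 38 of the 40 (95%), against 79.9% of all genes. In that fit the control is 1 library, assumed to vary like the knockdown libraries. Without the SP-prefixed control, 0 of 40 members passed and 0 had an unadjusted p under 0.05, while 1.72% of all genes passed and 13.8% had an unadjusted p under 0.05. SRSF1 then had a log2 fold change of 0.14 ± 0.13, SRSF2 of 0.22 ± 0.13, SRSF6 of -0.05 ± 0.15 and SRSF7 of -0.05 ± 0.13, and the members' median was 0.12. Leaving out either knockdown library left 0 members past edgeR's adjusted threshold, as it did for all genes, and 0 at an unadjusted p under 0.05. At that p there were 7.16% of all genes without the unprefixed and 3.31% without the SP-prefixed knockdown library. With all 4 libraries and no filter on low counts, SRSF1 alone of 44 members passed (edgeR adjusted p = 0.0215), against 2.97% of all genes. HSPA8, a constitutive chaperone, had its lowest level in the same library, with 1820 and 1583 CPM in the knockdown libraries, 1536 CPM in the unprefixed control and 557 CPM in the SP-prefixed control; its part in the SR values was not tested.

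**Figure D4:**
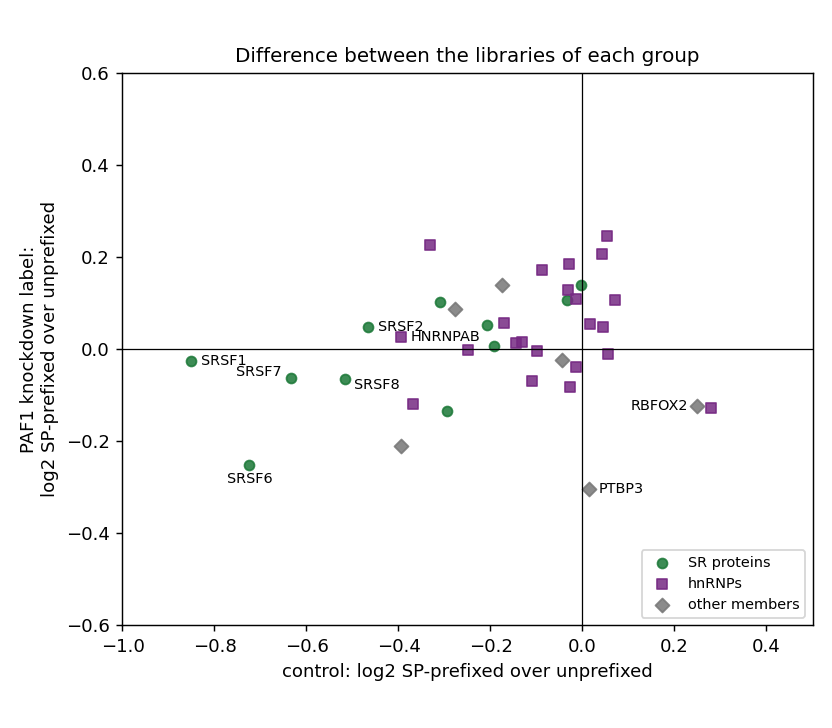
Log2 ratio of the SP-prefixed to the unprefixed library for each measured member, in the libraries labelled PAF1 knockdown (vertical axis) and in the controls (horizontal axis), without replicates. SR proteins (green) reach down to -0.25 (SRSF6) in the knockdown libraries and to -0.85 (SRSF1) in the controls; on the control axis hnRNPs (purple) run from -0.39 (HNRNPAB) to 0.28 (HNRNPLL).

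When the column-name prefix was added to the model, which removes a shift shared by both SP-prefixed libraries, 0 of 39 members passed, against 1.85% of all genes tested. At an unadjusted p under 0.05 it gave 4 members (SRSF1, SRSF2, HNRNPAB and HNRNPH1), or 10.3%, against 15.1% of all genes. SRSF1 had 0.56 ± 0.19 in that fit (edgeR adjusted p = 0.186). Both SP-prefixed libraries lay above both unprefixed ones for 1 member and below them for 6, against 17% and 16.6% of all genes. The SP-prefixed knockdown library did not share the low SRSF1, SRSF2 and SRSF7 levels of the SP-prefixed control.

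Promoter sequences were set side by side for 4 of the 5 members with the widest ratio between the controls, to show what lies ahead of genes that varied together. Bases before the RefSeq start and before the start of the gene in the count table were read from RefSeq (GRCh38.p14), for which 39 of the 45 members matched; SRSF2, the other of the 5, had no entry. The sequences run 5′ to 3′ on the strand of the gene, and capitals mark a match on either strand to 1 of 4 motifs. The motifs were TATAAA (the TATA box), CCAAT (bound by NF-Y), CCGGAA (the core of ETS sites) and TGACG (the core of CREB and ATF sites), which do not overlap one another here. The regions are chr17:58007347-58007496 on the minus strand for SRSF1, chr20:43457646-43457895 on the plus strand for SRSF6, chr2:38751495-38751744 on the minus strand for SRSF7 and chr11:95066627-95066876 on the plus strand for SRSF8.
SRSF1: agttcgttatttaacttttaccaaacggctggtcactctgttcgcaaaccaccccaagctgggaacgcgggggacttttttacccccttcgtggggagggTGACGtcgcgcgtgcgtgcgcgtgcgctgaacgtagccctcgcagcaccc
SRSF6: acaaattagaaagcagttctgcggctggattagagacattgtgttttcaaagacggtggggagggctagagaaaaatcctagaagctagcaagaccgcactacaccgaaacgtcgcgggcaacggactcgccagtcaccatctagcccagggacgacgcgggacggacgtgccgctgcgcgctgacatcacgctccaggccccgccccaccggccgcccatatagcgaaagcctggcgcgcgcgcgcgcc
SRSF7: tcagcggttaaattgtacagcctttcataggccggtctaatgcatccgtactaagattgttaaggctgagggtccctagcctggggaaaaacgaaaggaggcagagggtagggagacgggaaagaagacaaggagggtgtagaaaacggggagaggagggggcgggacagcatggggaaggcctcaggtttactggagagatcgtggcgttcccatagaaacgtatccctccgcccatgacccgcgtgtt
SRSF8: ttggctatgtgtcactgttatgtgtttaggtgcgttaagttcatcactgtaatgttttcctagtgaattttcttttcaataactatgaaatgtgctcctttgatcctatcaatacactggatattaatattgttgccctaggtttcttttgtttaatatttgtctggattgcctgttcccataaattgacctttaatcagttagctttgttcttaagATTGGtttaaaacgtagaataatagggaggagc

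No motif occurred in more than 1 of these 4 promoters. SRSF1 held 1 match to TGACG, SRSF8 held 1 match to CCAAT on the opposite strand, and SRSF6 and SRSF7 held none. Among SR genes that were lowest in the SP-prefixed control with a smaller gap, SRSF3, SRSF5 and SRSF11 also held TGACG in the 250 bases before the start. SRSF4, with a log2 ratio of -0.31 between the controls, did not. Of hnRNPs that held it, HNRNPA2B1, HNRNPAB, HNRNPD and HNRNPU were lowest in the SP-prefixed control. HNRNPA0, HNRNPA3, HNRNPDL and HNRNPLL held it too and were lowest in the unprefixed control. HNRNPH2 also held TGACG and was lowest in the SP-prefixed knockdown library. Outside both classes TRA2B held it and was lowest in the SP-prefixed control. The G and C content of the printed promoters was 59.3% for SRSF1, 61.6% for SRSF6, 54.8% for SRSF7 and 33.6% for SRSF8, against a median of 65.6% over the members and 58% over all promoters in the table. In the 250 bases before the RefSeq start, TGACG was present in 38.5% of the 39 matched members and in 21.7% of all 27305 promoters, CCAAT in 46.2% and 33%, CCGGAA in 20.5% and 14.8%, and TATAAA in 12.8% and 11.1%. A match describes letters, not a binding site.

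Annotation of the members carried many transcripts marked for nonsense-mediated decay. In GENCODE release 29, at least 1 such transcript was listed for 28 of the 39 measured members (71.8%), for 11 of 11 SR proteins and for 13 of 22 hnRNPs, against 42.5% of the protein-coding genes tested. SRSF7 had 6, SRSF1 had 3 and HNRNPU had 9. The counts are summed over all exons of a gene, so they cannot show whether the productive or the decaying transcript of a gene differed between libraries. The 10 decay factors were therefore read beside them, and none passed the test. UPF1, the central helicase of the pathway, had 146 and 142 CPM in the knockdown libraries and 138 and 106 CPM in the controls, a log2 fold change of 0.24 ± 0.16. UPF2, which bridges UPF1 to the exon junction complex, had 96.7 and 96.2 CPM against 89.6 and 70.9 CPM (0.27 ± 0.15), and SMG8 had 29.4 and 30.5 CPM against 26.2 and 20.2 CPM (0.37 ± 0.17). SMG9, a partner of SMG8, had 23.3 and 20.97 CPM against 22.1 and 15.9 CPM (0.22 ± 0.20). The SP-prefixed control was the lowest library for each of these 4 genes and for 7 of the 10 decay factors, of which 8 had a positive log2 fold change, with a median of 0.08.

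Other genes of the splicing pathway were read from 5 lists, and none passed the test over all genes in the model without the prefix. Of the 10 kinases of SR proteins and their nuclear importer, 7 had a positive log2 fold change, with a median of 0.07. SRPK1, which phosphorylates SR proteins in the cytoplasm, had a log2 fold change of 0.21 ± 0.13, the importer TNPO3 of 0.21 ± 0.13, the nuclear kinase CLK4 of 0.41 ± 0.21 and PRPF4B of 0.19 ± 0.17. Of 15 SR-related factors, 13 had a positive value, with a median of 0.09, and LUC7L2, a U1-associated factor, had the lowest p (0.26 ± 0.14, edgeR adjusted p = 0.531). RNPS1, RBM25 and LUC7L followed with 0.20 ± 0.14, 0.19 ± 0.14 and 0.18 ± 0.16. SF1, which binds the branch point, had 325 and 313 CPM in the knockdown libraries and 325 and 230.02 CPM in the controls (0.20 ± 0.18), the SP-prefixed control again the lowest. Of the 11 genes of branch point and U1 recognition, 10 had a positive value, with a median of 0.09, and PUF60 and SNRPC had log2 fold changes of 0.30 ± 0.13 and 0.31 ± 0.14.

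The list of RNA-binding regulators outside the members had 36 measured entries, with MATR3 entered more than once under separate gene identifiers. Of these entries, 26 lay higher in the knockdown libraries and 10 lower, with a median log2 fold change of 0.14. At an unadjusted p under 0.05 there were 2 of the 36, RBM24 and ESRP1, in opposite directions, a smaller share than the 11.2% of all genes. ESRP1, which sets the epithelial pattern of exon use, had 213 and 177 CPM in the knockdown libraries and 243 and 260.4 CPM in the controls (log2 fold change -0.37 ± 0.14, edgeR adjusted p = 0.404). RBM47, another regulator with epithelial expression, had 83.5 and 88.9 CPM against 95.9 and 122 CPM (-0.34 ± 0.15). In both genes the knockdown libraries lay below both controls, as they did for 4 of the 36, against 22.6% of all genes. For 17 of the 36 they lay above both controls, against 22.1% of all genes. ESRP2 overlapped between the groups, with 59.6 and 56.7 CPM in the knockdown libraries and 65.7 and 57.0 CPM in the controls (-0.08 ± 0.14). RBM24, a regulator of muscle splicing, had 0.926 and 2.27 CPM against 0.22 and 0.548 CPM; it rose by 2.04 ± 0.40 in the fit with the prefix term (edgeR adjusted p = 0.0379), at a level of few reads. SYNCRIP, related to HNRNPR, had 277 and 316 CPM against 255 and 225 CPM (0.30 ± 0.14).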

How the data were processed

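The study measured RNA from SW1990 cells by sequencing, in 4 libraries on 2 lanes each, 2 libraries labelled PAF1 CRISPR knockdown and 2 labelled control. The authors deposited raw counts per gene and lane, with exon lengths in bases, in 1 table, per the file headers. HISAT2, featureCounts and FastQC appear among the tools, and hg19 and GRCh38 among the builds, per the submitters' processing notes; versions, annotation and strand setting are not given in the sources used here. Without the strand setting, overlapping and antisense genes cannot be told apart. Spans of 38 of the 45 members equalled GENCODE release 29 on GRCh38. Symbols were found for 56321 of 60483 identifiers in the reference name table.

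Lanes were summed within libraries, which the labels call technical replicates, and no label names separate cultures for the libraries; p-values therefore reflect only how these libraries vary, possibly for technical reasons. The test of counts was edgeR's quasi-likelihood F test (version 4.0.16, R 4.3.3; TMM scaling, expression filter with a minimum count of 10, Benjamini-Hochberg threshold 0.05) over 16417 genes, with 2 residual degrees of freedom, or 1 with the prefix term. Standard errors come from the F statistic. CPM uses TMM-normalised library sizes, and TPM uses all genes. Counting intervals are exact Poisson intervals for levels and exact binomial ones for ratios, at 95%. Alternatives were DESeq2 1.42.0, limma-voom (limma 3.58.1), other scalings, filters, single lanes, a column-name prefix term and leaving out each library. On simulated data with 16151 genes, the test without the prefix term recovered 80 of 100 genes changed by 0.5 on the log2 scale. It recovered 100 of 100 changed by 1, and made 9 false calls. Every simulated gene had the same dispersion, only well-counted genes were changed, and no library was outlying. The share that the test would recover in the real libraries is therefore not known. Python 3.11.15 was used with numpy 2.4.6, pandas 2.3.3, matplotlib 3.10.9 and scipy 1.17.1.

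Members and lists were chosen with earlier results of these data known. Values in every library are given for members past the threshold, the 5 with the lowest p in each direction, the 5 with the widest ratio between controls and the 3 highest in CPM, and fold changes for the 4 genes per list with the lowest p; other members with values here were added after values were seen. A few genes that this rule or the marker lists cover are not reported here. Protein sequences were not used here.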

Additional observations from a re-analysis of the deposited data

How the results depend on the processing

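The median log2 fold change of the members stayed positive under all 15 alternatives (0.12 to 0.27), and the number past the adjusted threshold stayed at 0 in 13 of them. It was 1 (SRSF1, adjusted p = 0.0215, 2.97% of all genes) without a filter on low counts and ranged from 0 to 5 when each library was left out in turn. The number at an unadjusted p under 0.05, 2 in the reported fit, was 0 with library size alone (10.9% of all genes), 8 of 44 or 18.2% without a filter (10% of all genes), 1 with a minimum count of 50 (11.3%), 0 on lane L002 alone (10.7%), 4 with the prefix term (15.1%) and 0 to 16 when libraries were left out (3.31% to 24%). In the reported fit 25 members had groups that did not overlap, where 22.1% of all genes lay above and 22.6% below both controls. That number ranged from 32 to 38 when libraries were left out, where 64.7% to 79.9% of all genes did not overlap. A group of 1 library overlaps less readily for any gene, so these numbers cannot be compared with the 25. The causes of the shifts in calls were not tested. Leaving out libraries moved the median of the branch point and U1 list between 0.016 and 0.27 and that of the decay factors between 0.049 and 0.20. SRSF8, at -0.0013, changed sign to 0.0047 with DESeq2, 0.018 with limma-voom, 0.0046 with RLE scaling, 0.021 without a filter, 0.0025 on protein-coding genes, 0.053 on lane L001 and 0.021 with the prefix term, and ranged from -0.24 to 0.29 when libraries were left out. PTBP3 ranged from -0.20 to 0.10, RBFOX2 from -0.17 to 0.063, SRSF6 from -0.050 to 0.69 and SRSF7 from -0.047 to 0.60 over the same omissions. No paired analysis was possible because the columns carry none of the library numbers in the labels; a block on the column-name prefix, for which no source states a pairing, was fitted and is the prefix term above. With 2 libraries per group, each call rests on few libraries, and single libraries changed the calls as given here.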

Other observations

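Some splicing genes followed the column-name prefix more than the group. These were picked after their values were seen. SMG1, the kinase that phosphorylates UPF1, had 209 CPM in the unprefixed and 325 CPM in the SP-prefixed knockdown library, against 189.6 and 351 CPM in the unprefixed and SP-prefixed controls. CLK1, a nuclear kinase of SR proteins, had 54.8 and 77.6 CPM in the knockdown libraries and 43.4 and 78.9 CPM in the controls. For both genes the SP-prefixed libraries were above both unprefixed ones, and the log2 fold change between the groups was -0.02 ± 0.31 for SMG1 and 0.12 ± 0.29 for CLK1.

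MBNL2, a regulator of developmental exons, was also outlying in the SP-prefixed control but in the opposite direction to SRSF1. It had 134 and 139 CPM in the knockdown libraries and 128 and 289 CPM in the controls. It did not pass the test between the groups (edgeR, Benjamini-Hochberg adjusted p = 0.535).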
